A study of Mus musculus with 4 samples.

Results

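Immediate early genes are genes whose transcription is switched on within minutes of a stimulus, before any new protein has to be made. In this set are 10 of them, chosen by name: the AP-1 genes Fos, Fosb, Fosl2, Junb and Jund, the zinc-finger genes Egr1 and Egr3, the nuclear receptor gene Nr4a1, the synaptic gene Arc and the antiproliferative gene Btg2. The choice was made with earlier results of these data known. All 10 were found by symbol among the 21883 features of each deposited table. Their levels come from RNA sequencing of young adult male wild-type mice of the strain BL6/C57, 7 days after transection of the left sciatic and femoral nerves. The 4 groups, with 1 library each, are the ipsilateral (cut side) and contralateral L4-L6 dorsal root ganglia (DRG), home of the sensory neuron cell bodies, and the ipsilateral and contralateral lumbar dorsal spinal cord, which receives their axons. Every library comes from operated mice, so no library stands for uninjured tissue. The sources used here do not give the number of animals behind each library.

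These genes act as a switch between a signal at the cell surface and slower gene programmes. Calcium entry and growth factor receptors activate kinases that phosphorylate the DNA-binding factors CREB and Elk, the latter bound with SRF, and these factors start transcription of Fos, Egr1, Nr4a1 and their relatives. The transcripts are short-lived, so their level reports recent signalling. In the dorsal horn of the spinal cord, Fos is a widely used marker of neurons activated by painful input, and in sensory ganglia Jun, which pairs with Fos proteins, and Atf3, which pairs with Jun, are known markers of axon injury.

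Levels are taken to be in FPKM, fragment counts normalised for transcript length and library size, so levels can be compared between genes. No difference below could be checked against replicates. Genes are called measured in a tissue where the higher of its libraries reached 1 FPKM. Side differences are given as the log2 of (ipsilateral + 1) over (contralateral + 1), which understates differences of low genes, and as the plain ratio of the FPKM. The terms 2-fold higher and 2-fold lower refer to log2 ratios of 1 and -1 on the pseudocount scale, or beyond. Each interval is the 95% interval of the plain ratio, from the standard error that the log2 fold change and test statistic in the authors' deposited table imply. It covers the error of that model for these libraries and not the variation between animals.

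The promoters of these genes are shown because the genes are known to be switched on together. The promoter table from RefSeq (GRCm38.p6) matched 7 of the members and not Egr1, Egr3 or Arc. The 250 bases before the start of transcription were searched on both strands for the CArG box bound by SRF, the cyclic AMP response element bound by CREB (CRE, TGACGTCA), its core TGACG, the AP-1 site TGANTCA, the EGR site GCGNGGGCG and the TATA box TATAAA. The core lies inside every full CRE. Capitals mark the matches in the windows of Btg2, which had the largest side difference in DRG, of Fos, and of Nr4a1, which had the most matches. They are written 5′ to 3′ on the strand of the gene, chr1:134079156-134079405 (minus strand) for Btg2, chr12:85473640-85473889 (plus strand) for Fos and chr15:101266596-101266845 (plus strand) for Nr4a1.

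Btg2: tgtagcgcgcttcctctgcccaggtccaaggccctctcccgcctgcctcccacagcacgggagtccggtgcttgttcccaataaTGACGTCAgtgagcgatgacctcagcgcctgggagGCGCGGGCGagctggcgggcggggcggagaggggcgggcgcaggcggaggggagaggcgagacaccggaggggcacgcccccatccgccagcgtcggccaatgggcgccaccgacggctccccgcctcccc
Fos: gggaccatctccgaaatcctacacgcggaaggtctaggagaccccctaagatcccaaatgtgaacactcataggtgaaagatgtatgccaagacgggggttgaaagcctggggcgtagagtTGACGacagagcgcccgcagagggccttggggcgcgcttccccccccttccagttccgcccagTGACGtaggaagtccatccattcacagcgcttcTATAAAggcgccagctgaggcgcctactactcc
Nr4a1: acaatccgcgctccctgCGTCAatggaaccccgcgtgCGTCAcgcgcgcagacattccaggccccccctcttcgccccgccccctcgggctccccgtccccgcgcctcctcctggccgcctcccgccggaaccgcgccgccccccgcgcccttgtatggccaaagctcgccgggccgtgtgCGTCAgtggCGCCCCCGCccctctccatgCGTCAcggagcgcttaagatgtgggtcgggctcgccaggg

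In Fos the TATA box lay from 33 to 28 bases before the start, and the nearer of its CRE cores from 66 to 62 bases before it. Nr4a1 held 4 CRE cores, all on the minus strand, and an EGR site from 60 to 52 bases before the start. Btg2 held the only full CRE of the 7 windows, from 166 to 159 bases before the start, and an EGR site from 131 to 123. A CRE core, alone or inside a full CRE, was found in 5 of the 7 windows (Fos, Fosb, Junb, Nr4a1 and Btg2), against 17.8% of all 32851 windows of the table. An EGR site was found in 4 of the 7 (Fosb, Fosl2, Nr4a1 and Btg2), against 4.70% of all windows, and the full CRE and the TATA box in 1 each, against 1.55% and 12.4%. These 7 windows differ from the table in base composition, with 47.6% to 74.4% G and C against a median of 52.4%, and the part of composition in the matches was not tested. No CArG box or AP-1 site was found in the 7 windows, which says only that these letters are not in these bases (1.47% and 6.75% of all windows held one). The window of Fosl2 lies inside an exon of the GENCODE annotation and is not printed. A match of letters is a description and not a bound site.

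**Figure D1:**
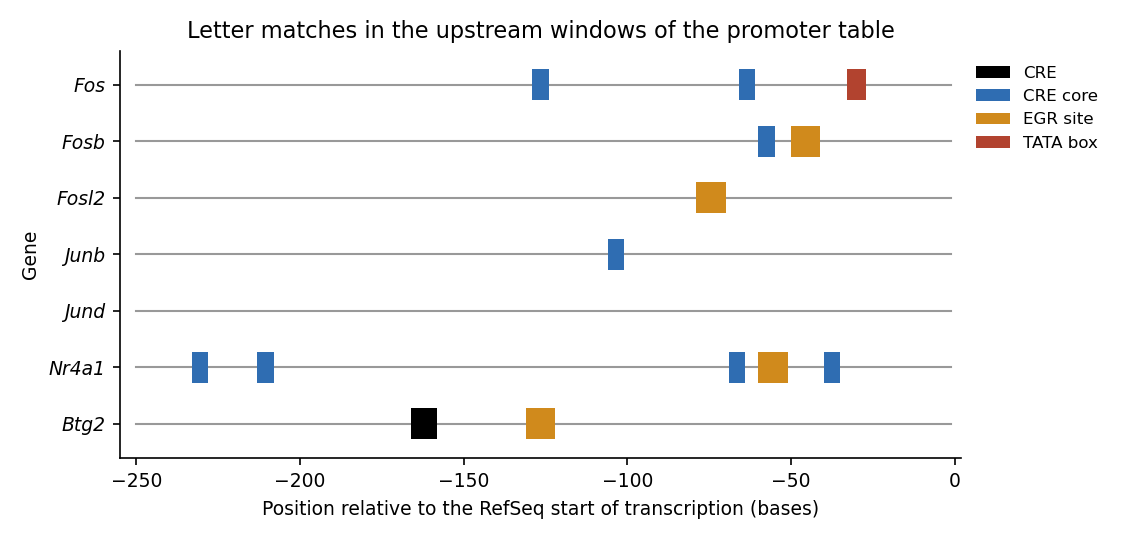
Positions of the letter matches in the 250 bases before the RefSeq start of transcription (horizontal axis, bases) for the 7 immediate early genes of the promoter table; coloured blocks are matches on either strand, and a core inside the full CRE is not drawn again. Nr4a1 has 5 blocks, Btg2 has the only full CRE, and Jund has none.

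The libraries carried the markers of their labelled tissues. In DRG the 14 sensory neuron markers summed to 2778 FPKM ipsilaterally and 3690 contralaterally, and of 9 dorsal horn markers 2 were measured, with Pax2 and Lbx1 listed at 0 in both libraries. Some markers of central glia were higher in contralateral than in ipsilateral DRG. The astrocyte genes Slc1a2, at 2.34 FPKM ipsilaterally against 7.98, and Aqp4, at 2.04 against 5.10, were 2-fold lower ipsilaterally, while Aldh1l1 was 2-fold higher, and the 6 astrocyte markers summed to 41.5 against 43.4. The oligodendrocyte genes Mobp (0.038 against 0.998 FPKM), Mog (0.032 against 0.711) and Opalin (listed at 0 against 0.887) were under 1 FPKM on both sides and lower ipsilaterally. In cord 9 of the 14 sensory neuron markers were measured and 7 of these were higher ipsilaterally, against 51.6% of all measured features. The sums over the list were 365 against 327 FPKM, mostly from Nefh (193 against 165) and Ntrk2 (105 against 96.3). Prph (7.997 against 3.14 FPKM) and Calca (2.91 against 0.565) were 2-fold higher, and the authors' deposited table calls neither (q = 0.0598 and 0.0883). Trpv1 was listed at 0 in both libraries, and Scn10a and Avil were listed at 0 contralaterally. The oligodendrocyte gene Mog was at 135 and 153 FPKM in cord. Between the sides, all 10 markers of microglia and macrophages were higher ipsilaterally in each tissue, with sums of 157 against 60.2 FPKM in DRG and 452 against 85.7 in cord. Blood RNA was abundant in ganglia, where 6 blood cell genes summed to 13813 FPKM ipsilaterally and 14019 contralaterally, against 143 and 215 in cord. Over all measured features the median log2 ratio was 0.05 in DRG and 0.02 in cord. The FPKM value of a single read, read from the standard errors, had an ipsilateral to contralateral ratio of 0.639 in DRG and 1.35 in cord, so the ipsilateral library was the deeper one in DRG and the shallower one in cord. Absolute depth is unknown.

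The genes were expressed at low to middling levels, from 0.205 FPKM (Fosb in ipsilateral DRG) to 22.5 FPKM (Egr1 in contralateral cord). In contralateral DRG the order was Jund at 10.6 FPKM, Nr4a1 at 9.07, Egr1 at 5.53, Fosl2 at 3.61, Fos at 2.87, Btg2 at 2.04, Junb at 1.76, Egr3 at 0.755, Arc at 0.669 and Fosb at 0.256. In contralateral cord the order was Egr1 at 22.5 FPKM, Jund at 21.5, Fos at 9.21, Arc at 7.02, Nr4a1 at 3.66, Btg2 at 2.64, Fosl2 at 2.62, Junb at 1.27, Egr3 at 0.569 and Fosb at 0.386. With 1 library a group there is no spread against which neighbours in these orders could be separated. Jund stood near the top in both tissues, and Fosb and Egr3 near the bottom. Arc, a gene of excitatory synapses, was 10.5 times as high in contralateral cord as in contralateral DRG, Egr1 4.06 times and Fos 3.21 times, while Nr4a1 was 2.48 times as high in DRG. The tables of the tissues were normalised separately, so these ratios are approximate and were not tested.

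**Figure D2:**
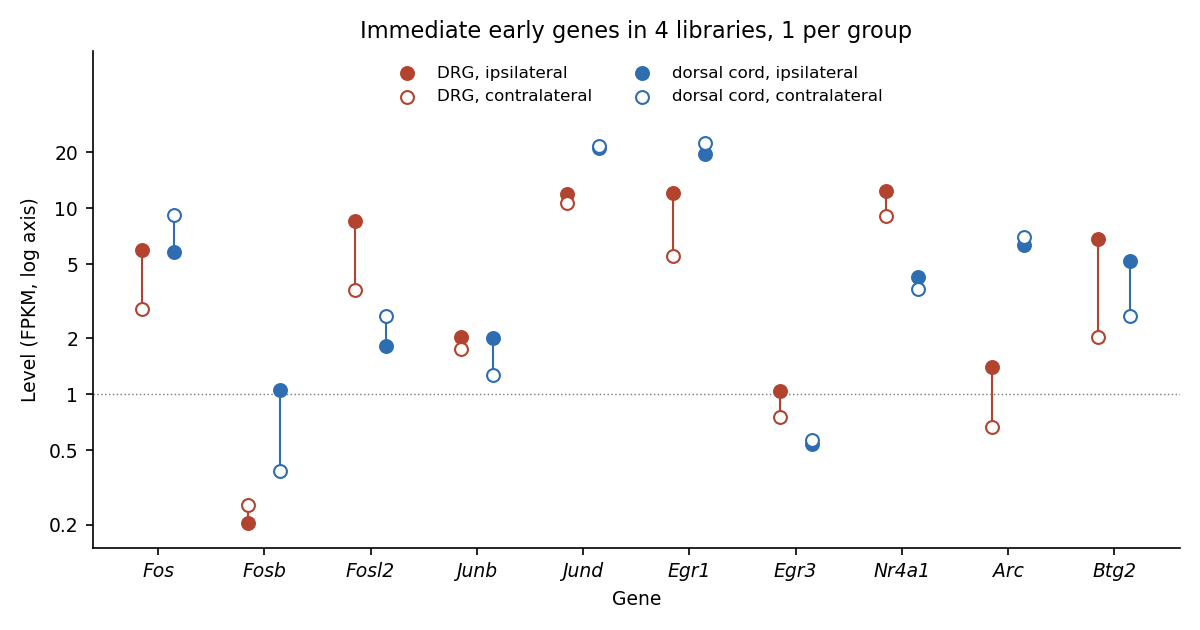
Level of each immediate early gene in FPKM (vertical log axis) in the 4 libraries, with filled points for the ipsilateral and open points for the contralateral library and a line joining the sides of a tissue; the dotted line marks 1 FPKM. In DRG the ipsilateral point is the upper one for every gene but Fosb, and in cord Egr1 and Jund lie highest.

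In DRG, 9 of the 10 genes were higher on the cut side and Fosb was not, against 56.1% of all measured features higher and 43.9% lower. The median log2 ratio over the 10 genes was 0.47, against 0.05 for all measured features. Over the 9 measured genes it was 0.53, and 1.05 by plain ratio. Fosb was under 1 FPKM on both sides, and Egr3 and Arc, as members of the 9 measured genes, reached 1 FPKM only ipsilaterally. At least 2-fold higher were 2 of the 9, Btg2 and Fosl2, against 3.04% of all measured features, and 0 were 2-fold lower (0.784%). That count depends on the pseudocount: by plain ratio 5 of the 9 were 2-fold higher (Btg2, Fosl2, Egr1, Arc and Fos), against 5.16% of features, and 0 were 2-fold lower (2.02%). With a pseudocount of 3 FPKM 0 were 2-fold higher, against 204 of the 13137 measured features. At a limit of 1.5-fold 4 were higher (Btg2, Fosl2, Egr1 and Fos, against 8.56% of features) and 0 lower (4.96%). After rescaling each library to its median, only Btg2 of the 10 genes was 2-fold higher, against 341 of the measured features. The authors' deposited table calls 3 of the 9 significantly higher (Btg2, Fosl2 and Egr1), against 4.65% of measured features, and 0 lower (1.97%). In bulk tissue, a different share of cells of a type and a different amount of RNA per cell cannot be told apart. Beside these values, markers of sensory neurons were lower ipsilaterally for 13 of 14 genes, and 6 of 6 markers of fibroblasts and connective tissue were higher, with sums of 685 against 353 FPKM. The part of these cell type differences, and of the myeloid and central glial ones, in the values of the immediate early genes was not tested.

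Fos proteins bind DNA only with a partner such as a Jun protein. Among the Fos genes of the set, Fos and Fosl2 were higher in ipsilateral DRG and Fosb was barely detected. Fosl2 encodes Fra-2, a Fos relative without the strong activation domain of Fos (mm9 chromosome 5, 32438845 to 32460212). It was at 8.49 FPKM on the cut side and 3.61 on the other, a log2 ratio of 1.04. The plain ratio was 2.35 with an interval of 1.57 to 3.50 and q = 0.00135 in the authors' deposited table. Fos (chromosome 12, 86814851 to 86818219) was at 5.94 against 2.87 FPKM, a log2 ratio of 0.84. Its plain ratio of 2.07 had an interval of 1.22 to 3.52, and the authors' deposited table does not call it (q = 0.0881). Fosb (chromosome 7, 19888045 to 19895394), whose splice form ΔFosB is a long-lived mark of repeated activity, stood at 0.205 against 0.256 FPKM and was not tested in the authors' deposited table. A value per gene cannot separate the Fosb splice forms.

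The Jun genes of the set differed little between the sides of the ganglia. Jund, the Jun gene with the steadiest expression (chromosome 8, 73221638 to 73224515), was at 11.9 FPKM ipsilaterally and 10.6 contralaterally. Its plain ratio of 1.12 had an interval of 0.755 to 1.66 in the authors' deposited table. Junb (chromosome 8, 87500811 to 87502617) was at 2.04 against 1.76 FPKM, a ratio of 1.16 (interval 0.594 to 2.25 by the authors' deposited table), so a 2-fold higher level lies within its error. Their relative Jun, a gene of the axon injury response and no member of the set, was at 88.5 against 41.8 FPKM (log2 ratio 1.06). Jun was the most abundant of the 7 Fos and Jun genes on both sides, and Fosl1 was at 0.623 FPKM ipsilaterally and listed at 0 contralaterally.

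Egr1 was higher and Egr3 was near the limit of measurement in ipsilateral DRG. Egr1, a zinc-finger factor that turns signalling by growth factors and activity into transcription (chromosome 18, 35020861 to 35024610), was at 12.1 FPKM ipsilaterally and 5.53 contralaterally. Its log2 ratio of 0.998 falls just short of the 2-fold limit, and its plain ratio of 2.18 had an interval of 1.43 to 3.31 with q = 0.00792 in the authors' deposited table. Egr3, known for its need in muscle spindles (chromosome 14, 70477252 to 70479964), was at 1.05 against 0.755 FPKM, a ratio of 1.38 (interval 0.560 to 3.42 by the authors' deposited table). Of their relatives, Egr2, a factor of myelinating Schwann cells, was at 13.2 against 7.54 FPKM (0.73), and the co-repressor genes Nab2 and Nab1 were at 7.41 against 4.89 (0.51) and 18.1 against 15.6 (0.20). Egr4 was listed at 0 on both sides.

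Btg2 had the largest side difference of the set. It encodes an antiproliferative protein that recruits the deadenylase complex to messenger RNA, and it is also a known target of p53 (chromosome 1, 135971442 to 135975732). It was at 6.86 FPKM on the cut side and 2.04 on the other, a log2 ratio of 1.37 that ranked 187th of 13137 measured features. The plain ratio was 3.36, with an interval of 2.03 to 5.57 and q = 0.000179 in the authors' deposited table. Its relatives Btg1 at 14.7 against 9.89 FPKM (0.53), Tob2 at 7.19 against 5.78 (0.27) and Tob1 at 13.1 against 10.7 (0.27) were higher by less.

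Nr4a1 and Arc were also higher ipsilaterally, with intervals that reached down to or near 1. Nr4a1, the orphan nuclear receptor Nur77 (chromosome 15, 101097277 to 101105225), was at 12.4 FPKM ipsilaterally and 9.07 contralaterally. That ratio of 1.37 had an interval of 0.910 to 2.06 in the authors' deposited table, which includes 1. Nr4a2 was at 5.90 against 4.46 FPKM (0.34), and Nr4a3 stayed under 1 FPKM. Arc, whose protein removes AMPA receptors from synapses (chromosome 15, 74499513 to 74503000), was at 1.4 against 0.669 FPKM, a log2 ratio of 0.53. Its plain ratio of 2.10 had an interval of 1.04 to 4.21, and the authors' deposited table does not call it (q = 0.253).

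**Figure D3:**
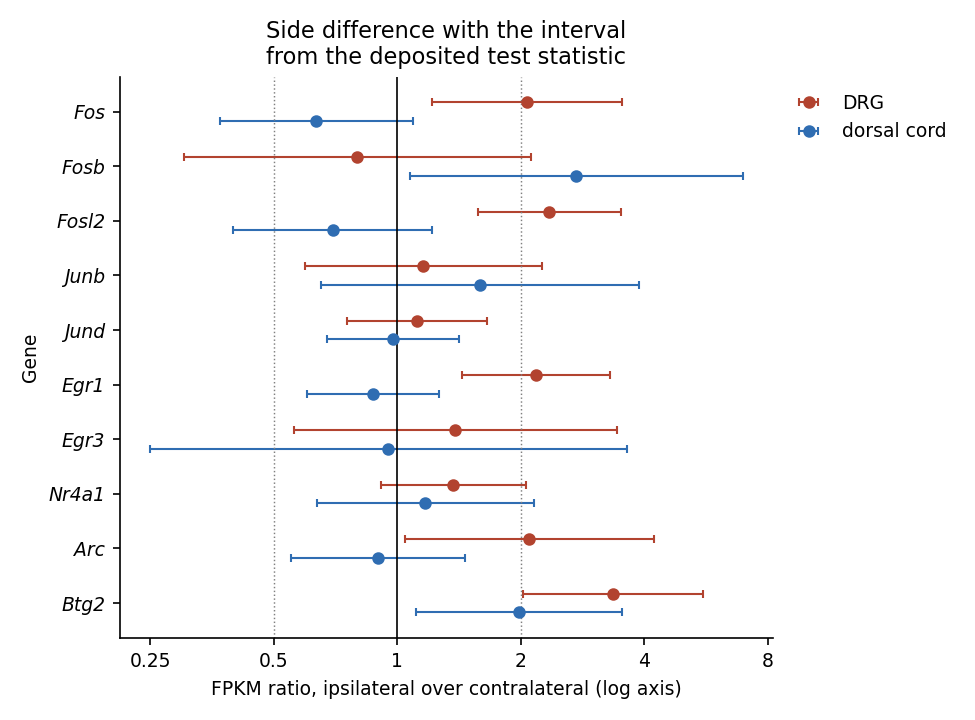
Plain FPKM ratio, ipsilateral over contralateral, for each gene in DRG and dorsal cord (horizontal log axis); bars are the 95% intervals from the error that the authors' deposited table implies, and the dotted lines mark 2-fold either way. In DRG the intervals of Fos, Fosl2, Egr1, Arc and Btg2 lie above 1, and in cord those of Fosb and Btg2 do.

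The ipsilateral dorsal cord showed no common direction. Of the 10 genes 4 were higher ipsilaterally and 6 lower, against 51.6% and 48.4% of all measured features, with a median log2 ratio of -0.03 against 0.02 for all measured features. Egr3 was under 1 FPKM on both sides, and Fosb reached it only ipsilaterally. None of the 9 measured genes was 2-fold higher or lower, against 4.46% and 1.64% of features, and the authors' deposited table calls 0 of them higher (4.64%) or lower (1.58%). By plain ratio 1 was 2-fold higher (Fosb, against 7.13% of features) and 0 were 2-fold lower (3.68%), and at a limit of 1.5-fold 1 was higher (Btg2, against 12.7%) and 0 lower (8.32%). The summed level of the 10 genes was 67.7 FPKM ipsilaterally and 71.4 contralaterally in cord, compared with 62.3 and 37.2 in DRG. All 10 myeloid markers were at least 2-fold higher in ipsilateral cord, while the 9 dorsal horn neuron markers summed to 306 against 420 FPKM, and the part of either, or of the sensory neuron markers, in these values was not tested.

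Btg2 and Fosb were the genes with an interval above 1 in cord. Btg2 was at 5.22 FPKM on the cut side and 2.64 on the other, a log2 ratio of 0.78. The plain ratio of 1.98 had an interval of 1.11 to 3.54, with q = 0.149 in the authors' deposited table. Of the 10 genes, Btg2 alone had an interval above 1 in both tissues. Fosb was at 1.06 against 0.386 FPKM, and its plain ratio of 2.73 had the wide interval of 1.07 to 6.97 with q = 0.198 in the authors' deposited table. On the log2 scale with the pseudocount this was 0.57, and Fosb would pass 2-fold only by plain ratio or with a pseudocount of 0.1 FPKM.

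Fos, the usual marker of activated dorsal horn neurons, stood at 5.84 FPKM on the cut side of the cord and 9.21 on the other, a log2 ratio of -0.58. This was the lowest ratio of the set, and the interval of the plain ratio of 0.634, from 0.369 to 1.09 in the authors' deposited table, includes 1. Fosl2 was at 1.83 against 2.62 FPKM, a ratio of 0.696 (interval 0.398 to 1.21 by the authors' deposited table). Arc stood at 6.30 against 7.02 FPKM (log2 ratio -0.14).

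The most abundant members were nearly level between the sides of the cord. Jund was at 21.0 FPKM ipsilaterally and 21.5 contralaterally, and its ratio of 0.975 had an interval of 0.672 to 1.41 in the authors' deposited table. Egr1 was at 19.6 against 22.5 FPKM, a ratio of 0.873 (interval 0.604 to 1.26 by the authors' deposited table). For these genes the intervals leave out a 2-fold difference in either direction, as far as these libraries go. Junb at 2.01 against 1.27 FPKM (log2 ratio 0.41), Nr4a1 at 4.28 against 3.66 (0.18) and Egr3 at 0.541 against 0.569 (-0.03) had intervals that include 1 and, at one end or the other, 2-fold.

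Set side by side, 3 genes were higher ipsilaterally in both tissues (Junb, Nr4a1 and Btg2), 6 were higher in DRG and lower in cord (Fos, Fosl2, Jund, Egr1, Egr3 and Arc), and Fosb was lower in DRG and higher in cord. For Fos the log2 ratios were 0.84 in DRG and -0.58 in cord, for Fosl2 1.04 and -0.36, and for Egr1 0.998 and -0.19. No gene had opposite signs with intervals that left out 1 in both tissues, and the difference between tissues was not tested. Ipsilaterally, the Fos level was close between tissues (5.94 FPKM in DRG and 5.84 in cord), whereas contralaterally it was 2.87 and 9.21.

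**Figure D4:**
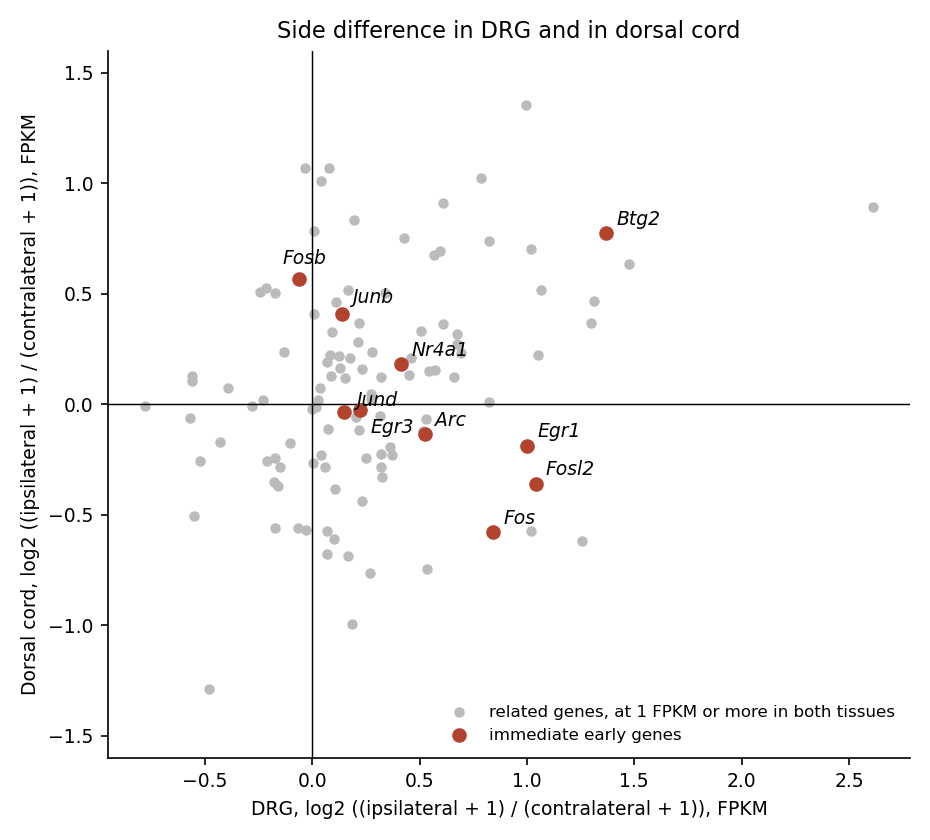
Log2 ratio, ipsilateral over contralateral with a pseudocount of 1 FPKM, in DRG (horizontal) and dorsal cord (vertical); red points are the 10 immediate early genes and grey points the related genes at 1 FPKM or more in both tissues, without Atf3, which lies off the axis at 4.85 and 2.37. Fos, Fosl2 and Egr1 lie at the lower right and Btg2 at the upper right.

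Genes of the wider programme were taken from 9 lists by role, some of which share genes with the set. The lists were chosen with earlier results of these data known, so their shares beside those of all features are descriptions only. Of the 118 genes outside the set, 107 were measured in DRG, with 10 at least 2-fold higher (9.35%, against 3.04% of all features), 0 lower and a median log2 ratio of 0.18. In cord 106 were measured, with 6 higher (5.66%, against 4.46%), 1 lower (0.943%, against 1.64%) and a median of 0.11. The authors' deposited table calls 14 of the 107 higher and 2 lower in DRG, against 4.65% and 1.97% of all features. In cord it calls 4 of the 106 higher and 3 lower, against 4.64% and 1.58%.

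In DRG the AP-1 partner genes included Atf3, a factor of injured neurons, at 389 against 12.6 FPKM (log2 ratio 4.85). All 10 measured AP-1 partners were higher, against 56.1% of all features, with a median log2 ratio of 0.27 and the lowest, Atf2, at 0.02. Of 19 other rapid-response transcription factor genes 16 were higher (against the same 56.1%) and 4 were 2-fold higher (against 3.04%): Cited2 at 8.40 against 2.38 FPKM (1.48), Nfil3 at 9.84 against 3.37 (1.31), Csrnp1 at 3.48 against 0.824 (1.3) and Klf6, a factor of axon growth, at 105 against 43.4 (1.26). Of 30 feedback and RNA decay genes 23 were higher, again against 56.1%, and the 2-fold ones were Gadd45a, a stress gene, at 139 against 21.9 FPKM (2.61) and Zfp36, whose protein destabilises short-lived messenger RNA, at 6.87 against 2.88 (1.02). The 10 measured synaptic effector genes, Arc among them, had a median of 0.05, with 0 past 2-fold, and Nptx1 was at 30.1 against 52.4 FPKM (-0.78). The 31 upstream kinases and factors had a median of 0.04, with Elk3, a partner of SRF, at 5.83 against 2.37 FPKM (1.02) and Srf itself at 2.57 against 2.16 (0.18).

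In cord the lists held fewer differences of this size. Atf3 was at 9.59 against 1.05 FPKM (log2 ratio 2.37) and the small Maf gene Maff at 3.94 against 1.45 (1.01), while Mafg was at 23.5 against 47.7 (-0.99). Ier5 was at 7.52 against 3.19 FPKM (1.02), Hes1, a target of Notch, at 6.35 against 2.50 (1.07), and Id2, an inhibitor of helix-loop-helix factors, at 36.5 against 90.6 (-1.29). Upstream, the kinase gene Rps6ka1 was at 11.5 against 3.90 FPKM (1.35) and Elk1 at 9.42 against 3.96 (1.07). Rps6ka1 was higher ipsilaterally in DRG as well, at 8.31 against 3.67 FPKM (0.996). Of 30 feedback and RNA decay genes 18 were higher, against 51.6% of all features, and 0 were past 2-fold in either direction, against 4.46% and 1.64%.

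**Figure D5:**
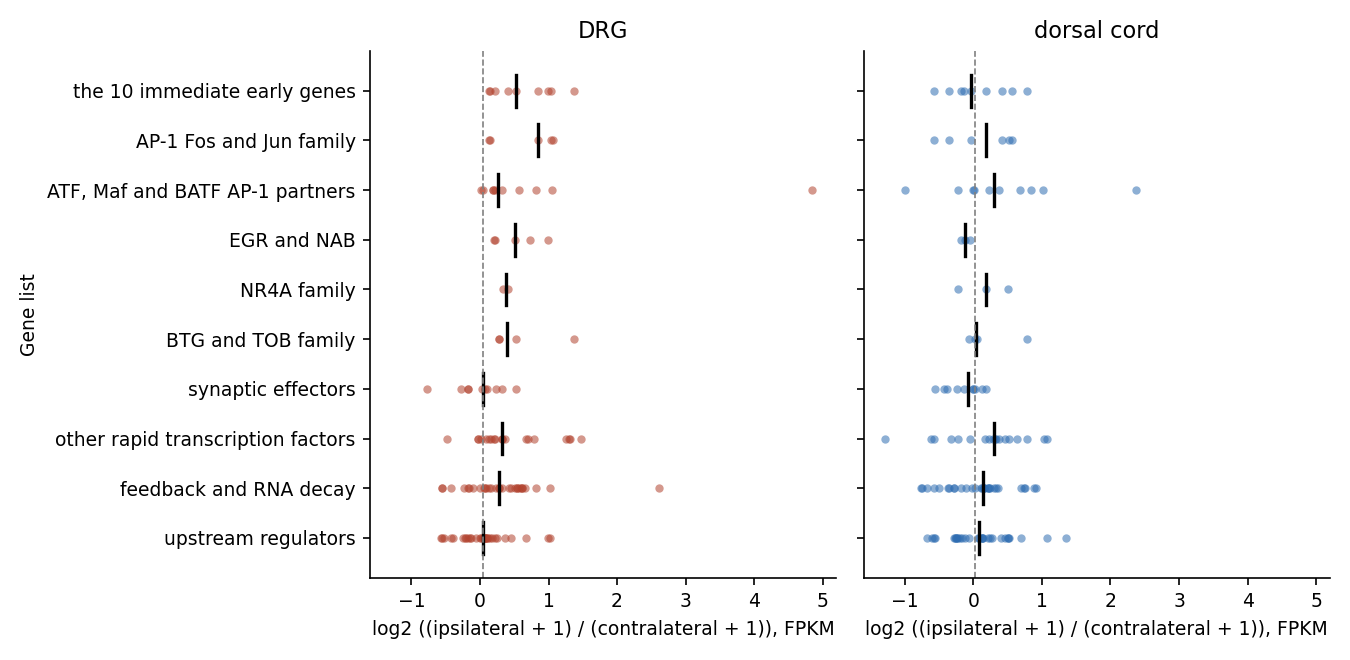
Log2 ratio, ipsilateral over contralateral with a pseudocount of 1 FPKM, of each measured gene (points) in the 10 immediate early genes and the 9 lists by role, in DRG and in dorsal cord; black bars are list medians and the dashed line the median of all measured features. In DRG the median of the 9 measured genes of the set is 0.53, right of the dashed line at 0.05, and in cord, also over 9, it is -0.03.

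The genes whose side differences were most like those of Fos, by distance over the log2 ratios of the 2 tissues among 7466 genes at 5 FPKM or more in all 4 libraries, were Gabrg1 (0.78 in DRG and -0.61 in cord), Them4 (0.77 and -0.57), Epb4.1l4b (0.77 and -0.54), Syt4 (0.84 and -0.68) and Sema4f (0.86 and -0.45). The likeness rests on only 2 values per gene. It also depends on the pseudocount, as Fos itself was under the limit of 5 FPKM in contralateral DRG, at 2.87. The pseudocount lowered the DRG log2 ratio of Fos from 1.05 to 0.84, and it changes the ratios of more abundant genes less.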

How the data were processed

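RNA was measured in 4 libraries from mouse DRG and dorsal cord, 1 per group. Per the labels' protocols, the kits were the RNeasy Mini Kit (QIAGEN) for RNA and ScriptSeq mRNA-Seq (Epicentre) for libraries. The submitters' processing notes name TopHat 1.4.0, Cuffdiff 1.3.0 and mouse build mm9. For the annotation, filters and strand setting, the sources used here give nothing. The deposited tables hold a level for each library, taken here to be FPKM. They hold the authors' Cuffdiff p-values and q-values, which compare 1 library with 1 library. They also give a log2 fold change and a test statistic.

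Genes were matched by symbol. Their log2 ratios used a pseudocount of 1 FPKM, and the ratio in cord was turned so that ipsilateral is over contralateral. Standard errors are the deposited log2 fold change divided by the deposited test statistic. Read as a normal deviate, that statistic gives the deposited p-values within 0.001 for 100% of the features compared. This checks the form of the statistic and not the size of the standard error. A single read was recognised where this error was that of 1 read in each library: 50 of 57 such features in DRG had a log2 ratio that rounds to -0.65, and 20 of 22 in cord one that rounds to 0.43. Deposited starts count from 0, as their spans match RefSeq lengths (6303 of 19393 features, against 435 if counted from 1), so 1 was added. The number of per-sample columns not used was 0. The ratio calculation was tested on simulated data. Python 3.11.15, pandas 2.3.3, NumPy 2.4.6, SciPy 1.17.1 and matplotlib 3.10.9 were used.

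The members and lists were chosen with earlier results of these data known. Named were all members, their family relatives, and up to 4 genes per longer list and tissue with the largest log2 ratio in size. Srf, Atf2, Homer1, Dusp1, Npas4, Klf6 in cord, the marker genes given singly and the genes listed at 0 were named after their values were seen. Alternatives were pseudocounts of 0.1 and 3 FPKM, median and upper-quartile rescaling, no filter or 5 FPKM, the authors' test status, the authors' calls and a 1.5-fold limit, and, added after seeing the data, the plain ratio. A comparison of the proteins was not made. A gene of the lists that the naming rule selects is not reported here.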

Additional observations from a re-analysis of the deposited data

How the results depend on the processing

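With 1 library per group no replicate could be left out. No paired analysis was possible because each group has 1 library. Another pseudocount or the plain ratio cannot change the sign of a log2 ratio, so only the rescalings could. Under both rescalings the log2 ratio of every member kept its sign in each tissue (0 changes of sign). These rescalings were small, with log2 factors of 0.08 (median) and 0.04 (upper quartile) in DRG and 0.05 and 0.02 in cord. The median over the measured members, which has no error of its own, did depend on the settings. In DRG it was 0.53 as reported, 0.97 with a pseudocount of 0.1 FPKM, 0.92 at a filter of 5 FPKM (6 genes) and 1.05 by plain ratio. It was lower, at 0.35, with a pseudocount of 3 FPKM, and was 0.49 after median and 0.51 after upper-quartile rescaling. In cord it was -0.03 as reported, -0.087 after median and -0.058 after upper-quartile rescaling, and -0.14 at a filter of 5 FPKM (5 genes). Counts past 2-fold also depended on the settings. In DRG the members higher were 4 (pseudocount 0.1 FPKM), 0 (pseudocount 3 FPKM), 1 (median rescaling), 4 (1.5-fold limit) and 5 (plain ratio), against 2. In cord 1 was higher with a pseudocount of 0.1 FPKM, 1 at the 1.5-fold limit and 1 by plain ratio, against 0.

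Related genes higher in DRG were 6 at a pseudocount of 3 FPKM, 6 after median rescaling and 22 at the 1.5-fold limit, against 10, and those lower were 2 by the authors' deposited calls and 1 at the 1.5-fold limit, against 0. In cord the related genes higher were 2 at a pseudocount of 3 FPKM and 16 at the 1.5-fold limit, against 6. Those lower in cord were 2 with a pseudocount of 0.1 FPKM, by plain ratio and under either rescaling, 3 by the authors' deposited calls and 8 at the 1.5-fold limit, against 1.

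All features higher and lower in DRG, 400 and 103 as reported, were 679 and 259 (pseudocount 0.1 FPKM), 204 and 44 (3 FPKM), 611 and 259 (authors' deposited calls), 1124 and 651 (1.5-fold limit) and 674 and 264 (plain ratio), and 68 were lower at a filter of 5 FPKM. In cord, 595 and 219 became 964 and 481 (0.1 FPKM), 264 and 81 (3 FPKM), 373 and 130 (filter of 5 FPKM), 1698 and 1111 (1.5-fold limit) and 945 and 487 (plain ratio). Median rescaling moved the median of all features by -0.07 in DRG and -0.05 in cord. In DRG it left 341 features 2-fold higher and 134 2-fold lower. Low levels limit precision: among features with a mean of 0.5 to 5 FPKM, the median implied standard error on the log2 scale was 0.41 in DRG and 0.52 in cord, and 5.35% and 10.2% of them were past 2-fold either way.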

Other observations

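Among related genes known as fast neuronal activity genes, Npas4 and Egr4 stayed under 1 FPKM in every library. Others did not, such as Nr4a3 in cord, at 3.87 FPKM ipsilaterally against 4.68 contralaterally. Npas4, an activity-dependent transcription factor gene, was listed at 0 in ipsilateral DRG and was at 0.025 FPKM contralaterally, and at 0.089 ipsilaterally against 0.396 contralaterally in cord. Egr4 was at 0.231 FPKM in ipsilateral cord and listed at 0 in the other 3 libraries. By contrast, Homer1, a synaptic scaffold gene with an activity-induced short form, was at 9.84 against 9.64 FPKM in DRG and 13.8 against 13.5 in cord. A value per gene cannot separate that short form of Homer1 from its other forms. The phosphatase gene Dusp1, a feedback inhibitor of MAP kinases, was higher ipsilaterally in both tissues, at 9.68 against 6.06 FPKM in DRG (log2 ratio 0.60) and 10.03 against 5.81 in cord (0.70), and the authors' deposited tables call neither. In cord Klf6 stood at 13.8 FPKM on the cut side and 21.7 on the other (-0.62), opposite in sign to its ratio of 1.26 in DRG, a difference between tissues that was not tested.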
